A study of Homo sapiens with 4 samples.

Results

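The signal regulatory protein (SIRP) genes SIRPA, SIRPB1, SIRPG, SIRPB2 and SIRPD lie together on chromosome 20, and the ATAC-seq peaks at and around them are described here in HL-60, a human cell line from a promyelocytic leukemia. ATAC-seq uses the Tn5 transposase to cut and tag open chromatin, so a peak marks a stretch where cuts were dense. The ATRA group was grown for 4 days with 1 µM all-trans retinoic acid (ATRA) dissolved in ethanol, the control group with ethanol alone over the same time, and both had medium and agent renewed once on the way. Each group had 2 libraries, which the study calls independent biological replicates. All 4 libraries came from 1 cell line, so nothing here speaks to other cells. The genes were chosen by the contrast between these groups, namely the peaks present in ATRA libraries and absent from control libraries near SIRPA, and so every difference between ATRA-treated and control cells at this locus is given as a description, with no test.

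Peaks of the 4 libraries that overlapped by at least 1 bp were merged into regions. A region belonged to the locus when it overlapped a SIRP gene body or the 50 kb on either side of it. This gave 28 regions of 78063 in the whole series, of which 21 held a peak in ATRA replicate 1, 21 in ATRA replicate 2, 14 in control replicate 1 and 13 in control replicate 2. The windows of SIRPB2, SIRPD, SIRPB1 and SIRPG overlapped and formed 1 window of 287 kb (hg19, chr20:1401386-1688425), while SIRPA, encoded on the other strand, had its own window of 146 kb (chr20:1824813-1971238). A region with a peak in both ATRA libraries and in neither control library is called ATRA-only, and the opposite case control-only. The strength of a peak is given as its score percentile, which is its rank by the deposited score among all peaks of the same library from 0 to 100, because the scale of the score itself was not stated.

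SIRP proteins are cell surface receptors of the immunoglobulin superfamily, and several of them are carried by myeloid cells such as granulocytes and macrophages. SIRPA is the inhibitory member: on binding CD47 on another cell it recruits the tyrosine phosphatases SHP-1 and SHP-2 through motifs in its cytoplasmic tail and restrains phagocytosis. SIRPB1 has a short tail and signals in the activating direction through the adapter DAP12, encoded by TYROBP, whereas SIRPG binds CD47 without a signalling tail of its own and is best known from T cells.

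The libraries differed in size. The lists held 43494 and 63541 peaks in the ATRA replicates and 42081 and 45903 in the control replicates, and they covered 17.5, 31.6, 17.1 and 16.3 Mb of the genome. ATRA replicate 2 stood apart, with the most peaks and the widest ones, at a median of 416 bp against 291 to 328 bp elsewhere. Read counts are not part of the lists, so depth was unknown, and deeper sequencing can yield more and wider peaks. The part of list size in the differences below was not tested, and values with lists of equal size or with ATRA replicate 2 left out stand beside the main results. Of 8 markers of the granulocyte lineage, CTSG, SPI1, CEBPE and CD33 had a promoter peak in all 4 libraries, while ELANE and AZU1 had none in any library. Of 5 markers of other cell types, 3 had no promoter peak in any library and COL1A1 had one in all 4.

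The locus held more peaks in the ATRA libraries, and no region found in both control libraries was missing from both ATRA libraries. Of its 28 regions, 4 were ATRA-only, or 14.3%, against 8.94% of all regions in the series, and 0 were control-only, against 3.37% of all regions. A further 6 regions had a peak in all 4 libraries, against 30.3% of all regions. Another 8 had a peak in both ATRA libraries and in 1 control library, which is 28.6% of the locus against 8.95% of all regions. The last 10 regions followed other patterns, and 8 of them appeared in a single library. Counted by group, 18 regions held a peak in both ATRA libraries and 7 held one in both control libraries. The 8 regions seen in a single library had percentiles from 0.3 to 52.4. Because the locus was picked for its ATRA-only peaks, the excess over the series is part of the choice and is not read as a result.

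**Figure D1:**
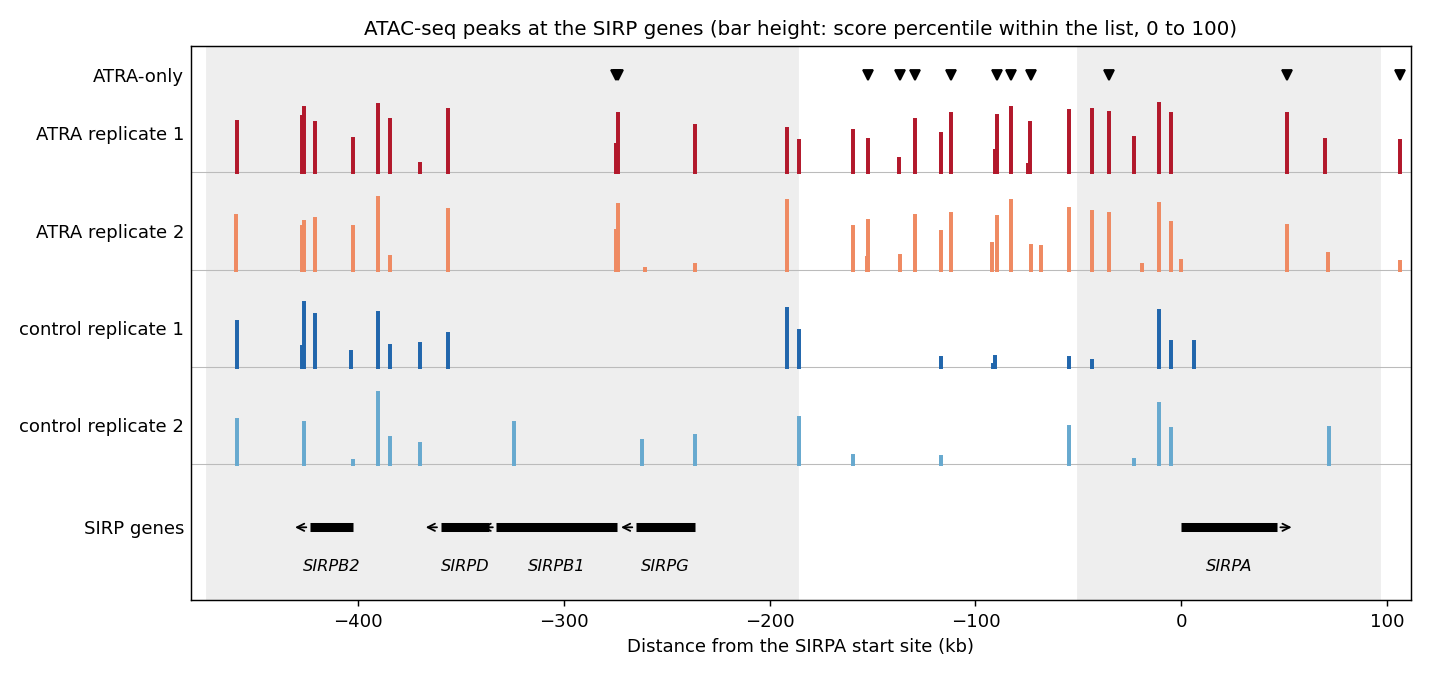
ATAC-seq peaks of the 4 libraries along the SIRP locus, plotted by distance from the SIRPA start site in kb; the height of each bar is the score percentile of the peak within its library, grey bands are the gene windows, black bars are genes with arrows in the direction of transcription, and triangles mark ATRA-only regions. Of the 12 marked regions, 4 lie in the gene windows, 7 in the unshaded interval between SIRPG and SIRPA and 1 beyond the SIRPA window at the right edge, and the 2 at the SIRPB1 start merge into 1 symbol at this scale.

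SIRPA spans chr20:1874813-1921238 on the plus strand and was described first as the gene for which the locus was picked. Its window held 8 peaks in ATRA replicate 1, 9 in ATRA replicate 2, and 4 in each control replicate. Counted over their full width, these peaks covered 3514 and 4692 bp in the ATRA libraries and 1009 and 1077 bp in the control libraries. The groups did not overlap in either measure, with means of 4103 ± 833 bp and 1043 ± 48.1 bp (SD, n = 2 each), a ratio of 3.93. Over the whole lists the same ratio was 1.47. Scaled to each list, the SIRPA window took 201 and 148 bp of every Mb covered in the ATRA libraries and 59.0 and 66.1 bp in the control libraries. When each list was cut to its 42081 strongest peaks, the lengths were 3289, 2625, 1009 and 861 bp.

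Almost none of these peaks lay inside the SIRPA gene itself. The gene body held 0 peaks in ATRA replicate 1, 1 in ATRA replicate 2, 1 in control replicate 1 and 0 in control replicate 2. The promoter of a gene was taken as 1 kb upstream to 100 bp downstream of the start of any of its protein-coding transcripts. Defined so, the SIRPA promoter carried a peak in ATRA replicate 2 alone. That peak was wide, at 969 bp (chr20:1874262-1875230), but weak, at the 11.6th percentile. The single intronic peak, 6.3 kb downstream of the start (chr20:1881035-1881246), was found in control replicate 1 alone at percentile 32.5. In every library most of the peaks of the SIRPA window lay upstream of the gene.

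Upstream of SIRPA, 2 regions were shared by all 4 libraries. The nearer lay 4.9 kb upstream (chr20:1869668-1870250), with score percentiles of 75.5 and 60.4 in the ATRA libraries and 31.7 and 45.7 in the control libraries. Both ATRA values lay above both control values, by 29.2 percentile points on average, and its peaks were also wider, at 464 and 583 bp against 255 and 214 bp. The farther lay 10.9 kb upstream (chr20:1863580-1864192) and was strong throughout, at percentiles 87.6 and 84.6 against 72.3 and 77.7, with widths of 501 and 538 bp against 311 and 356 bp. In this second region 80.0% of the 50-base words of the sequence occurred once in the genome, the lowest share among the regions of both windows. Both regions were accessible in the 2 groups and ranked higher within the ATRA lists.

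Another upstream region, 43.3 kb from the start (chr20:1831209-1831865), had percentiles of 80.7 and 73.9 in the ATRA libraries and 7.8 in control replicate 1, with no peak in control replicate 2. Its peaks spanned 646 and 657 bp in the ATRA libraries and 231 bp in the control library. Presence alone would count this region as shared with a control library, although the control peak was near the bottom of its list.

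The SIRPA window held 2 ATRA-only regions, one on each side of the gene. The upstream one lay 35.1 kb before the start site (chr20:1839489-1839945) and had percentiles of 76.2 and 71.4 and widths of 422 and 439 bp. The downstream one lay 51.3 kb after the start site and thus past the end of the gene (chr20:1925714-1926583), with percentiles of 74.7 and 55.7. Both lay outside annotated genes. Their central 200 bases (hg19, plus strand) are printed because they are the SIRPA regions on which the choice of the locus rests. Neither holds the letters of any of the 9 motifs searched, so no base is in capitals.

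SIRPA 35.1 kb upstream, chr20:1839617-1839816: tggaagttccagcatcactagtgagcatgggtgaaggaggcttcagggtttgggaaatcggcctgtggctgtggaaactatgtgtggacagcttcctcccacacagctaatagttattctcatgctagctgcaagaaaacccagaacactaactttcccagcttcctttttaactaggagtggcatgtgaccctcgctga
SIRPA 51.3 kb downstream, chr20:1926049-1926248: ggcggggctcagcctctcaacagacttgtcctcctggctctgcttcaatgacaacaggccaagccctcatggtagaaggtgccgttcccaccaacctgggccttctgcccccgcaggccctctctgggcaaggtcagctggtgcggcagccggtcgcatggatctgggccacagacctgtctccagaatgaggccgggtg

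All the 50-base words of both regions were unique in the genome. The ATRA-only regions of the whole series had a median percentile of 32.7 in ATRA replicate 1 (quartiles 17.0 and 52.2) and 43.8 in ATRA replicate 2 (quartiles 25.6 and 61.7). The upstream region stood above the upper quartile in both libraries, and the downstream one in ATRA replicate 1 only. As the choice of the locus rests on these regions, their ranks are given as a description.

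The remaining SIRPA regions were weak or mixed. Peaks 23.0 kb upstream (chr20:1851607-1852041) ranked at 43.8 in ATRA replicate 1 and 5.8 in control replicate 2. A peak 19.1 kb upstream (chr20:1855577-1855851) was found in ATRA replicate 2 alone at percentile 6.3. Past the gene, a region 71.5 kb downstream of the start (chr20:1946106-1946581) ranked higher in control replicate 2, at 46.7, than in the ATRA libraries, at 0.7 and 19.9. A peak 70.1 kb downstream of the start, inside the antisense RNA gene PDYN-AS1, appeared in ATRA replicate 1 only, at percentile 41.4. None of these 4 regions separated the groups.

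Gene by gene, 2 ATRA-only regions were not rare. Of 20136 protein-coding genes with the same 50 kb flanks, 2829 had at least as many as SIRPA, or 14.0%. The count depended on the flank. With 25 kb on either side SIRPA had 1 ATRA-only region and 29.8% of genes had as many, whereas with 100 kb it had 6 and 0.646% of genes, or 130, had as many. Of the regions added at 100 kb, 3 lay in the interval between SIRPG and SIRPA and 1 past the far edge of the SIRPA window. By the counts of ATRA-only, control-only, shared and other regions (2, 0, 2 and 7), 17 of 20128 other genes matched SIRPA exactly. EIF3A, a translation initiation factor subunit on chromosome 10, and MRPL45, a mitochondrial ribosomal protein on chromosome 17, were among the 5 closest in gene length, together with the unnamed genes ENSG00000273025, ENSG00000285816 and ENSG00000286070.

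**Figure D2:**
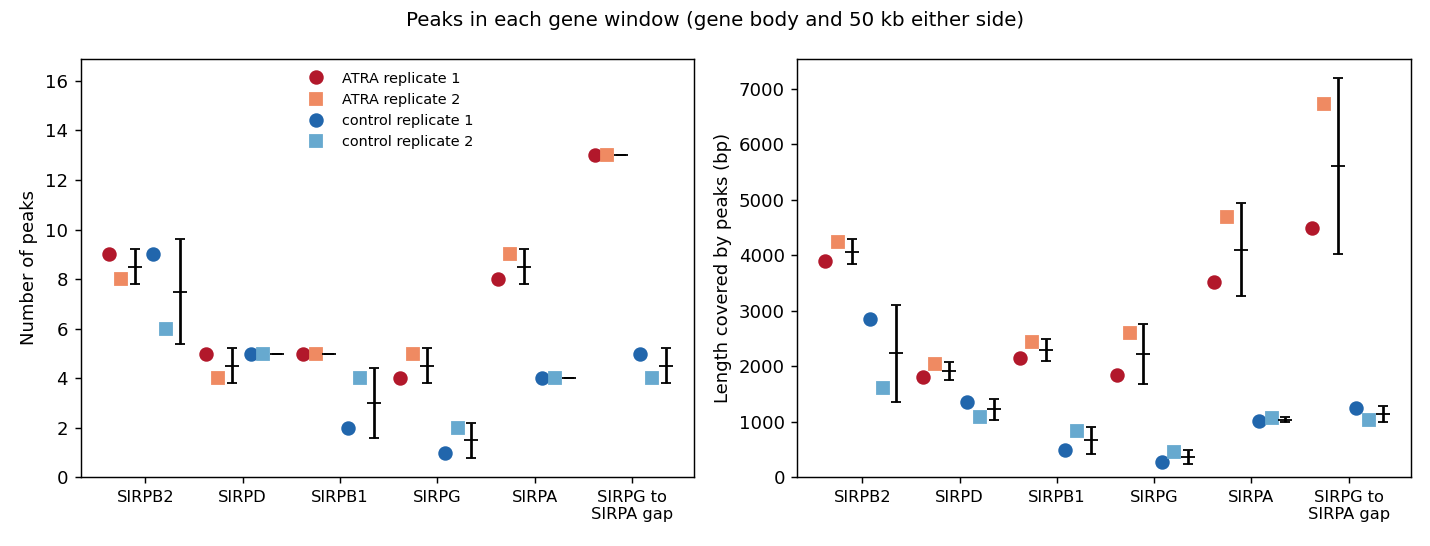
Number of peaks (left) and length covered by peaks in bp (right) in each SIRP gene window and in the gap between the windows, with 1 symbol per library and the mean ± SD of the 2 libraries of each group as a black bar. The groups do not overlap in covered length at any gene, whereas in the number of peaks they overlap at SIRPB2 and SIRPD; neighbouring windows of the first 4 genes share peaks.

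SIRPB1 (chr20:1542031-1600707, minus strand), the activating receptor, was the member with a promoter peak in both ATRA libraries and in neither control library. At the SIRPB2 promoter, described below, both ATRA peaks also ranked above the only control peak. The region over the SIRPB1 start site (chr20:1600566-1601314) had peaks of 684 and 749 bp in the ATRA libraries, at percentiles 75.5 and 83.6, and none in either control library. A second ATRA-only region, 0.7 kb downstream in a SIRPB1 intron (chr20:1599735-1600267), had percentiles of 35.7 and 49.9 and widths of 511 and 394 bp. The first of these regions also covered the start of ENSG00000260861, a protein-coding gene model that overlaps SIRPB1 on the same strand, so the peak cannot be assigned to one start alone. Of all protein-coding genes, 2.16% had a promoter peak in both ATRA libraries and in neither control library, and SIRPB1 was the only SIRP gene among them.

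The SIRPB1 window as a whole held 5 and 5 peaks in the ATRA libraries and 2 and 4 in the control libraries. They covered 2149 and 2440 bp against 491 and 844 bp, or 2294 ± 206 and 668 ± 250 bp (SD, n = 2 each), a ratio of 3.43. The peaks that touched the gene body were 1195 and 1143 bp long in sum in the ATRA libraries and 0 and 184 bp in the control libraries, counted over their full width, part of which lay upstream of the start. The control peak in the gene body lay 50.2 kb downstream of the start in an intron (chr20:1550391-1550574) and was found in control replicate 2 alone, at percentile 52.4. No region of the SIRPB1 window was shared by all 4 libraries.

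SIRPG (chr20:1609798-1638425, minus strand) binds CD47 and lies next to SIRPB1, whose ATRA-only regions also fell within the SIRPG window. The SIRPG promoter itself (chr20:1638272-1638592) had peaks in 3 libraries. Percentiles were 59.3 in ATRA replicate 1, 6.2 in ATRA replicate 2 and 35.5 in control replicate 2, with widths of 277, 236 and 266 bp, so the control value lay between those of the ATRA libraries. Inside the gene, control replicate 2 alone had a peak at percentile 29.2 (chr20:1612652-1612839), and ATRA replicate 2 alone had one at percentile 0.3 in an exon of SIRPG-AS1 (chr20:1614227-1614496). Upstream, 45.0 kb from the start and in an intron of the pseudogene SIRPB3P, a region ranked at 55.8 and 88.8 in the ATRA libraries and at 74.4 in control replicate 1 (chr20:1682952-1683908). The SIRPG window held 4 and 5 peaks over 1839 and 2606 bp in the ATRA libraries, against 1 and 2 peaks over 284 and 454 bp in the control libraries, a ratio of mean covered lengths of 6.02. The 2 regions at the start of SIRPB1 made up 1195 and 1143 bp of the length in the ATRA libraries.

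The 250 bases upstream of SIRPG, SIRPB2 and SIRPA, whose promoters each carried a peak in at least 1 ATRA library, are printed on the strand of the gene and end at the base before the start site, to show the sequence next to the starts of these members. The SIRPA promoter peak covered its printed sequence in full, while the promoter peaks of SIRPG and SIRPB2 overlapped theirs in part or lay beside them. Capitals mark the PU.1 letters GAGGAAGT or their reverse complement, the only one of the 9 motifs found in the 3 sequences.

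SIRPG upstream, minus strand, chr20:1638426-1638675: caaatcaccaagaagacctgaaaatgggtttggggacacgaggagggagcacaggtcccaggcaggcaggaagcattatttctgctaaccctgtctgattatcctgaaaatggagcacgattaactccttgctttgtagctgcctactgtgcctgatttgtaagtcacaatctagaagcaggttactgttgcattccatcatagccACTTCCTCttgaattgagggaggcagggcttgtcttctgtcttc
SIRPB2 upstream, minus strand, chr20:1472234-1472483: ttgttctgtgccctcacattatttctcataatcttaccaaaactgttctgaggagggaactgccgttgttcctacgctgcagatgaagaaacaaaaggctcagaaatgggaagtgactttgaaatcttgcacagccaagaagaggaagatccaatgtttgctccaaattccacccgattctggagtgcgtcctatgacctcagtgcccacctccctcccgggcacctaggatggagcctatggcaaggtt
SIRPA upstream, plus strand, chr20:1874563-1874812: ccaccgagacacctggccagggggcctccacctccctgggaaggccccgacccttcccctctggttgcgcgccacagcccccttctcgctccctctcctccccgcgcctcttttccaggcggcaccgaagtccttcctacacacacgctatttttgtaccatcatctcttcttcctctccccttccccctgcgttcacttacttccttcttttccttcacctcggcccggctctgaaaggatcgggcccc

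SIRPG held 1 PU.1 match close to its start, and the SIRPB2 and SIRPA sequences held no match. Letters alone show a possible site and not binding, and the absence of letters says nothing on other factors.

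SIRPB2 (chr20:1451386-1472233, minus strand), a member whose function is less well described, had the most shared accessibility. Its window held 9 and 8 peaks in the ATRA libraries and 9 and 6 in the control libraries, so the groups overlapped in number. The covered length was 3906 and 4232 bp against 2853 and 1613 bp, a ratio of means of 1.82. Its promoter (chr20:1471867-1472420) had peaks at percentiles 43.0 and 54.9 in the ATRA libraries, none in control replicate 1, and one at percentile 3.5 in control replicate 2. These peaks were 338, 554 and 178 bp wide. A peak at percentile 19.0 in control replicate 1 lay 0.8 kb downstream of the start (chr20:1471339-1471524), separate from the promoter peaks.

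The highest percentile of any peak in the windows, that of ATRA replicate 2, was found 12.2 kb upstream of SIRPB2 (chr20:1484196-1484688), in a region at percentiles 86.3 and 92.1 in the ATRA libraries and 69.6 and 90.8 in the control libraries. The value of control replicate 2 lay between those of the ATRA libraries, so the groups overlapped. Another region, 17.8 kb upstream (chr20:1489893-1490246), ranked at 67.5 in ATRA replicate 1 and 15.8 in ATRA replicate 2, against 27.4 and 33.0 in the control libraries, and here the ATRA libraries lay on both sides of the control values. The other shared regions of this window belonged to the surroundings of NSFL1C, which encodes a cofactor of the p97 ATPase and overlaps the end of SIRPB2. The NSFL1C promoter (chr20:1447913-1448862) ranked at 83.1 and 61.7 against 82.1 and 52.7, and a region beyond that gene (chr20:1415385-1415983) at 64.2 and 69.4 against 57.3 and 56.1. A second peak at the NSFL1C promoter (chr20:1447411-1447851), at 70.7, 54.2 and 25.6, and one where NSFL1C and SIRPB2 overlap (chr20:1453461-1453940), at 62.9, 64.6 and 66.8, were both missing from control replicate 2 alone.

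SIRPD (chr20:1514897-1538351, minus strand), predicted to encode a secreted protein, had no promoter peak in any library. An intronic region 19.9 kb downstream of its start (chr20:1518083-1518873) ranked at 80.5 and 77.0 in the ATRA libraries and at 42.4 in control replicate 1, with none in control replicate 2. The widths were 452 and 791 bp against 238 bp. Past the end of the gene, 33.5 kb downstream of the start, a region ranked at 10.5 in ATRA replicate 1 and at 29.0 and 25.6 in the control libraries, and had no peak in ATRA replicate 2 (chr20:1504720-1505055). It was the only region of the windows with a peak in both control libraries that an ATRA library lacked. The SIRPD window held 5 and 4 peaks against 5 and 5, and 1804 and 2036 bp against 1366 and 1096 bp, a ratio of means of 1.56, close to the 1.47 of the whole lists.

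Among the 6 regions shared by all 4 libraries, 3 had a higher percentile in both ATRA libraries than in both control libraries, and these were the 2 regions upstream of SIRPA and the one beyond NSFL1C. Over the series 29.2% of shared regions did so. The reverse held for 0 of 6, against 12.8% of all shared regions. In width, 5 of 6 were wider in both ATRA libraries, against 37.1% of all shared regions. The median difference in percentile, ATRA minus control, was 10.6 points over the 6 regions (range 5.0 to 29.2) and 2.8 points over all 23653 shared regions (quartiles -4.5 and 14.4). Of the 8 regions found in both ATRA libraries and 1 control library, the control peak ranked below both ATRA peaks in 4 and above both in 2, while over the series it ranked below both in 51.2% and above both in 19.9%.

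**Figure D3:**
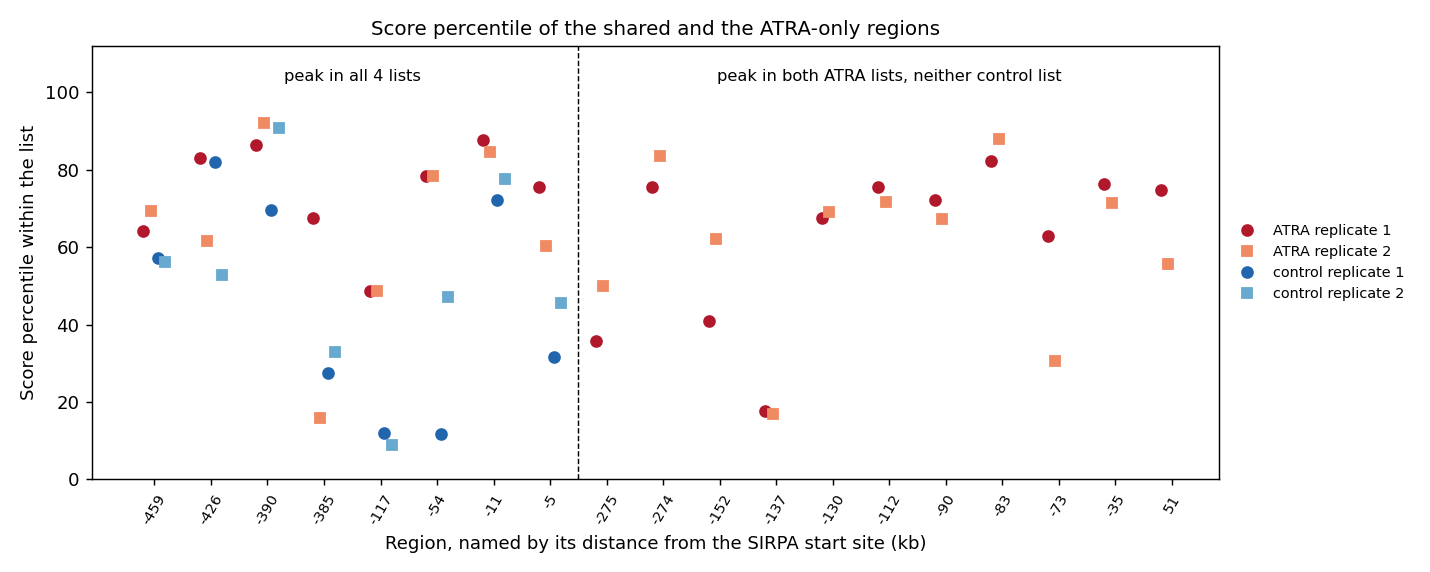
Score percentile within each library (vertical axis, 0 to 100) of the 8 regions shared by all 4 libraries (left of the dashed line) and the 11 ATRA-only regions (right) of the SIRP windows and the gap between them, each named by its distance from the SIRPA start site in kb, with 1 symbol per library. In the shared regions 4.9, 10.9, 54.4 and 116.8 kb upstream of SIRPA both ATRA values lie above both control values. The same holds in the shared region beyond NSFL1C, the farthest from SIRPA, and the groups overlap in the other shared regions. The ATRA-only regions range from 17.0 to 88.0.

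The interval between the windows (chr20:1688426-1824812, 136 kb) lay outside the rule and is described because the windows of the locus end within it. It held 16 regions, of which 7 were ATRA-only, or 43.8%, against 8.94% of all regions in the series. Control-only regions numbered 0, against 3.37% of all regions. This came to 5.13 ATRA-only regions per 100 kb, against 1.37 in the SIRPA window and 0.923 over both windows, and no density over the series was computed. The locus was picked for ATRA-only peaks near SIRPA, which the interval adjoins, so this excess is not read as a result either. The interval held 13 peaks in each ATRA library and 5 and 4 in the control libraries, and these covered 4491 and 6734 bp against 1246 and 1034 bp. Scaled to each list, this was 257 and 213 bp per Mb covered against 72.9 and 63.4 bp. The ATRA-only regions lay 73.2 to 152 kb upstream of the SIRPA start, and 6 of the 7 fell within ENSG00000286288, a long non-coding RNA gene on the minus strand that took up much of the interval (chr20:1709684-1798411) and held 11 of the 16 regions.

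The strongest of them lay 82.9 kb upstream of SIRPA (chr20:1791468-1792278), at percentiles 82.2 and 88.0 and with widths of 532 and 811 bp. A region 111.8 kb upstream (chr20:1762796-1763251) ranked at 75.5 and 71.7, one 89.7 kb upstream (chr20:1784703-1785440) at 72.3 and 67.2, and one nearer to SIRPG (chr20:1745018-1745492) at 67.6 and 69.0. The weakest, within the pseudogene CKAP2LP1 (chr20:1737769-1738160), ranked at 17.7 and 17.0. Their medians were 67.6 and 67.2, and those of the 4 ATRA-only regions in the windows were 75.1 and 63.6. All were above the upper quartiles of ATRA-only regions over the series. Because the locus was picked for ATRA-only peaks, these ranks are not read as a result. The interval also held 2 shared regions, both with repeated sequence. One, 54.4 kb upstream of SIRPA (chr20:1820034-1820840), ranked at 78.4 and 78.4 against 11.7 and 47.2, with 59.8% of its 50-base words unique, and the other (chr20:1757762-1758177) at 48.7 and 48.8 against 11.9 and 8.9, with 74.4% unique. In both of these the ATRA values lay above the control values.

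The edge of the windows decided how these regions were counted. The last region inside the first window ended 4517 bp before its edge and ranked at 55.8, 88.8 and 74.4 with no peak in control replicate 2, while the first one outside began 349 bp beyond the edge and ranked at 40.7 in ATRA replicate 1, 46.4 in control replicate 1 and 59.2 in control replicate 2. On the SIRPA side, the first region inside began 6396 bp from the edge and was the one 43.3 kb upstream, and the last outside, 3973 bp from the edge, was the shared region 54.4 kb upstream. Past the SIRPA window, the next region (chr20:1981004-1981295) was ATRA-only at percentiles 40.2 and 10.0.

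The counts moved with the lists and definitions used. With lists of 42081 peaks each, the windows held 25 regions, 5 of them ATRA-only, while 7.15% of 65182 regions in the series were ATRA-only, and the interval between them held 5 ATRA-only regions of 14. With ATRA replicate 2 left out, 5 regions of the windows had a peak in ATRA replicate 1 and in no control library, and 16.0% of all regions did. Without ATRA replicate 1 the count was 8 and the share of all regions 29.2%. Without control replicate 1 it was 9 against 13.7% of all regions, and without control replicate 2 it was 7 against 14.6%. The regions of the windows were not recounted with 1 library left out. These counts are therefore not shares, and no excess over the series is read from them. Under a definition rebuilt from the methods of the study, in which a group's peaks are those found in both of its replicates, 12 of 18 ATRA peaks of the windows had no counterpart among the control peaks, or 66.7%, against 37.3% over the series. In the other direction 1 of 7 control peaks had none, or 14.3%, against 23.7%. The larger count under that definition followed from regions such as the one 43.3 kb upstream of SIRPA, which a single control library held.

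In position, 14 of the 28 regions were centred in introns, 3 in exons and 11 outside genes. The 50-base words of 26 of them were all unique in the genome. Of the 28 regions, 13 held at least 1 motif in their central 200 bases, counted on both strands. GATA letters (AGATAA or TGATAA) were in 7, against 18.8% of all regions, CEBP letters (TTGCNNAA) in 6, against 12.3%, RUNX letters (AACCACA) in 3, against 8.55%, and PU.1 letters in 2, against 8.94%. The retinoic acid receptor motif DR5 was in 1, the weak ATRA replicate 2 peak in SIRPG-AS1, against 0.0974% of all regions, and no region held the AP-1 letters TGAGTCA, the ETS letters CCGGAAGT, the IRF letters GAAANNGAA or CTCF, which were in 5.72%, 1.11%, 8.08% and 5.87% of all regions. The CEBP letters lay in the shared region nearest SIRPA and in the region 43.3 kb upstream, which also held RUNX and GATA letters. They also lay in regions 23.0 kb upstream of SIRPA, highest in ATRA replicate 1, and 71.5 kb downstream of its start, highest in control replicate 2. Another lay 0.8 kb downstream of the SIRPB2 start, in control replicate 1 alone. The last lay 33.5 kb downstream of the SIRPD start and ranked higher in the control libraries. Of the 4 ATRA-only regions of the windows only the SIRPB1 promoter held a motif, and in the interval 4 of 7 held none. A match of letters is a description of the sequence.

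The partners of the SIRP receptors were taken from a list of 18 genes. Of these, 12 had at least 1 ATRA-only region in their own window, or 66.7%, against 40.9% of all protein-coding genes. Control-only regions were found at 4, or 22.2%, against 16.5% of genes. A promoter peak in all 4 libraries was found at 9, or 50.0%, against 41.9% of genes. Windows grow with gene length, and these shares were not adjusted for it.

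By role, ATRA-only regions were found at 1 of 5 ligands, both phosphatases, all 5 genes listed as adapters and 4 of 6 listed as kinases. The adapters included CSK, itself a tyrosine kinase. Among the ligands, CD47 had 0 ATRA-only regions, 3 shared regions and a promoter peak in control replicate 1 alone. SFTPD, a lung surfactant protein that binds SIRPA, had 1 ATRA-only region and a promoter peak in both ATRA libraries and no control library. THBS1, or thrombospondin 1, which binds CD47, had 0 ATRA-only regions and a promoter peak in both ATRA libraries and control replicate 2. SFTPA1 and SFTPA2 had no ATRA-only region and no promoter peak, and SFTPA2 had 1 control-only region. Of the phosphatases, PTPN6, which encodes SHP-1, had 2 ATRA-only and 5 shared regions, and PTPN11, which encodes SHP-2, had 1 and 3.

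TYROBP, the DAP12 adapter with which SIRPB1 pairs, had 2 ATRA-only and 3 shared regions and a promoter peak in all 4 libraries. GRB2, FYB1 and SKAP2 had 1 ATRA-only region each, and CSK had 2 with 1 control-only region. All 5 of these genes had a promoter peak in every library. Among the genes listed as kinases, SYK, which acts downstream of DAP12, had the most, with 4 ATRA-only regions, 0 control-only and a promoter peak in all 4 libraries. LYN had 2 ATRA-only and 1 control-only region, and PTK2B had 1 and 2. SRC and JAK2 had 0 of either kind.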

How the data were processed

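Peak lists of 4 ATAC-seq libraries were analysed, grouped by their titles in the labels. Per the methods, the authors removed adapters, used Bowtie for alignment to hg19, and ran MACS2 with default parameters as the peak caller. The submitters' processing notes name cutadapt, Bowtie2 and both MACS and MACS2, and which release made the lists was not settled here. A shift to the Tn5 cut site and the treatment of PCR duplicates were not given in the sources used here, so peak edges may lie some bases off. The deposited score of each peak, made by the authors' peak caller, ran from 50.0 to a ceiling of 3100 on an unstated scale. It was used only as a percentile (share of the list with a lower score, tied peaks taken at the middle of their ranks), which does not compare amounts of signal between libraries. Deposited starts and ends were converted to 1-based coordinates, and a region takes the highest percentile of its peaks in a library.

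Genes came from GENCODE release 44 lifted to GRCh37, in which 0 of the chromosomes named by the lists were missing. The SIRP genes, the partner list, the markers and the motifs were chosen with earlier results of these data known. Named throughout were the SIRP genes, neighbours holding a described region, the partner list and the genes most like SIRPA in their counts of regions. The genes of the partner list are counted together, and 1 of them and some promoter sequence are not reported here. Sequences were read from GRCh37; the steps used Python 3.11.15, numpy 2.4.6, pandas 2.3.3, numba 0.67.0 and matplotlib 3.10.9. Merging and classes were checked on simulated peaks at sites set far apart, so closely spaced peaks and peaks split within 1 library were not covered. No test between groups was run. Alternatives were equal list sizes, a score threshold, a stricter overlap, a fixed width, other flanks, a definition rebuilt from the methods, same-numbered pairs and leaving out each library.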

Additional observations from a re-analysis of the deposited data

How the results depend on the processing

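Of 84 values recomputed under other settings, 55 stayed close to the reported one, 29 moved and 0 reversed. Close meant within a fixed fold for counts, and within the pooled SD of replicates for covered length and percentile difference. Only those 2 measures have a sign, so a count could not reverse. The values of the replicate block, which were the same by construction, were among the 55. So were those of covered length with 1 library left out, which could not count as moved. Leaving out 1 of 2 libraries cannot shift the group mean by more than that pooled SD. The 4 ATRA-only regions of the windows became 11 with flanks of 100 kb and 12 under the definition rebuilt from the study's methods, and ranged from 5 to 9 with 1 library left out at a time. The 0 control-only regions became 1 with scores above the 25th percentile and 1 under the rebuilt definition, and ranged from 0 to 2 with 1 library left out. The 6 regions in all libraries ranged from 6 to 11 with 1 library left out, the most without control replicate 2. The 2 ATRA-only regions of the SIRPA window became 1 with flanks of 25 kb, 6 with 100 kb and 4 under the rebuilt definition, and ranged from 3 to 5 with 1 library left out. The difference in covered length at SIRPA (3060 bp) became 2022 bp with equal lists, 2138 bp with scores above the 25th percentile, 900 bp with every peak set to 200 bp, 2239 bp with 25 kb and 6023 bp with 100 kb, and ranged from 2471 to 3649 bp with 1 library left out. The 2829 genes with at least as many ATRA-only regions as SIRPA became 1551 with equal lists, 575 with the score threshold, 5996 with 25 kb, 130 with 100 kb and 1549 under the rebuilt definition, and ranged from 1389 to 2129 with 1 library left out. In each setting the bar was the count of SIRPA itself in that setting, such as 3 with the score threshold, so these numbers of genes do not share 1 cut. ATRA-only regions with a motif went from 1 to 2 in a longer central window, 3 in the whole region and 2 with equal lists. The cause of these moves was not tested beyond what each setting itself adds or removes. With 1 library left out, a group rests on a single list, and a region then counts from 1 peak.

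With the replicate number as a replicate block, a region counted where both pairs showed it, and the counts (4, 0, 6 and 2 regions, 2829 genes) and the mean difference at SIRPA (3060 bp, from 2505 and 3615 bp in the pairs) were the same by construction. Differences between replicates in score percentile correlated at 0.21 between the groups over 23653 shared regions, and no source used here says that the numbers pair the libraries. With 2 libraries a group, spread is poorly known, and depth was unknown.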
